A study of Mus musculus with 4 samples.

Results

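Cadherin superfamily genes were described in the islets of control mice and of mice lacking Wtap in beta cells, through 2 peak lists of the RNA mark N6-methyladenosine (m6A). Members were the genes named Pcdh, Cdh, Celsr, Fat or Dchs in either list, apart from Cdh5, and 42 genes met this rule among 7491 genes with a peak. Of these, 30 had 75 of the 10964 control peaks, and 38 had 83 of the 9411 knockout peaks. The control islets came from Wtapflox/flox mice and the knockout islets from Wtap-βKO mice, both 7 weeks old and fed normal chow. WTAP belongs to the enzyme complex that places m6A, and the study asks which islet transcripts depend on it for the mark. RNA was pooled from 10 control and from 19 knockout mice, and each pool gave 1 library enriched with an m6A antibody (IP) and 1 unenriched input library. There were thus no replicates, no test between genotypes was possible, and all intervals below are exact Clopper-Pearson 95% intervals that cover counting error over genes or peaks only. The Cre line is not given in the sources used here, and the label places the deletion in beta cells only, so the other cells of the islet should keep Wtap. The lists hold no RNA level of Wtap, and its deletion was not checked here.

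Cadherins are calcium-dependent adhesion molecules of the cell surface. Classical cadherins join cells through catenins and actin, Fat, Dachsous and Celsr cadherins are very large proteins of planar polarity and growth control, and protocadherins are best known from neurons. The clustered protocadherins lie in the alpha, beta and gamma arrays on a single chromosome. In the alpha and gamma arrays each gene has its own long first exon, which is spliced to constant exons that all genes of the array share, whereas beta genes have no constant exon. A read from a gamma constant exon therefore carries no sign of which gamma gene it came from.

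The values given for each peak are the authors' own. The fold enrichment divides IP by input within a peak, and the −log10 q grows with the confidence of the call. Both the listing of a peak and its q depend on read depth, which is unknown, and on RNA level. A change in m6A per transcript, in RNA per cell and in the number of cells that express a gene cannot be told apart in these bulk islets. As a check of the tissue, 8 of 8 beta cell markers and 5 of 5 endothelial markers had a peak in at least 1 list, as did 3 of 4 ductal, 2 of 4 acinar, 2 of 4 immune, 2 of 5 neural and Schwann and 1 of 5 stromal markers. Of the alpha cell markers 4 of 5 had one, and no delta or PP cell marker lacked one. Exon numbers and untranslated regions were not analysed here. Positions are 1-based on GRCm38.

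The knockout list gave the same stretch of RNA to all gamma protocadherin genes. On the plus strand of chromosome 18, 22 of 22 gamma genes of the RefSeq annotation each had a peak between positions 37839983 and 37840173, and Gm42416 and 1 unnamed gene identifier had peaks there too. The 24 peaks had 109 nt in common. Elsewhere no interval of either list held more than 3 identifiers. The interval lay 1700 nt before the last gamma end, and 21 of the 22 RefSeq gamma genes end between 37841863 and 37841873. Pcdhgb8, a transcribed pseudogene in RefSeq, ends at 37840489. The 24 peaks were weak, with folds of 1.44 to 1.5, at percentiles 0.65 to 1.27 of all knockout folds, and −log10 q of 2.58 to 2.95. No control peak overlapped the interval, and the nearest control gamma peak ended 22779 nt upstream, in Pcdhgc4.

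This interval set how the gamma genes were counted. It was the only knockout peak of 15 gamma genes, of which 9 had a control peak elsewhere and 6 had none. The 9 were Pcdhga3, Pcdhga4, Pcdhga8, Pcdhga9, Pcdhgb1, Pcdhgb2, Pcdhgb4, Pcdhgb8 and Pcdhgc4, and the 6 were Pcdhga10, Pcdhga11, Pcdhga12, Pcdhgb5, Pcdhgb6 and Pcdhgc5. As deposited, the 22 gamma genes divided into 15 listed in both genotypes and 7 listed in the knockout alone. In 11 of the 15 no control peak overlapped a knockout peak. Of member peaks in the knockout list, 22 of 83 lay on an interval of 2 or more genes, against 2.50% of all knockout peaks. In the control list this held for 4 of 75 member peaks, against 2.30% of all control peaks.

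**Figure D1:**
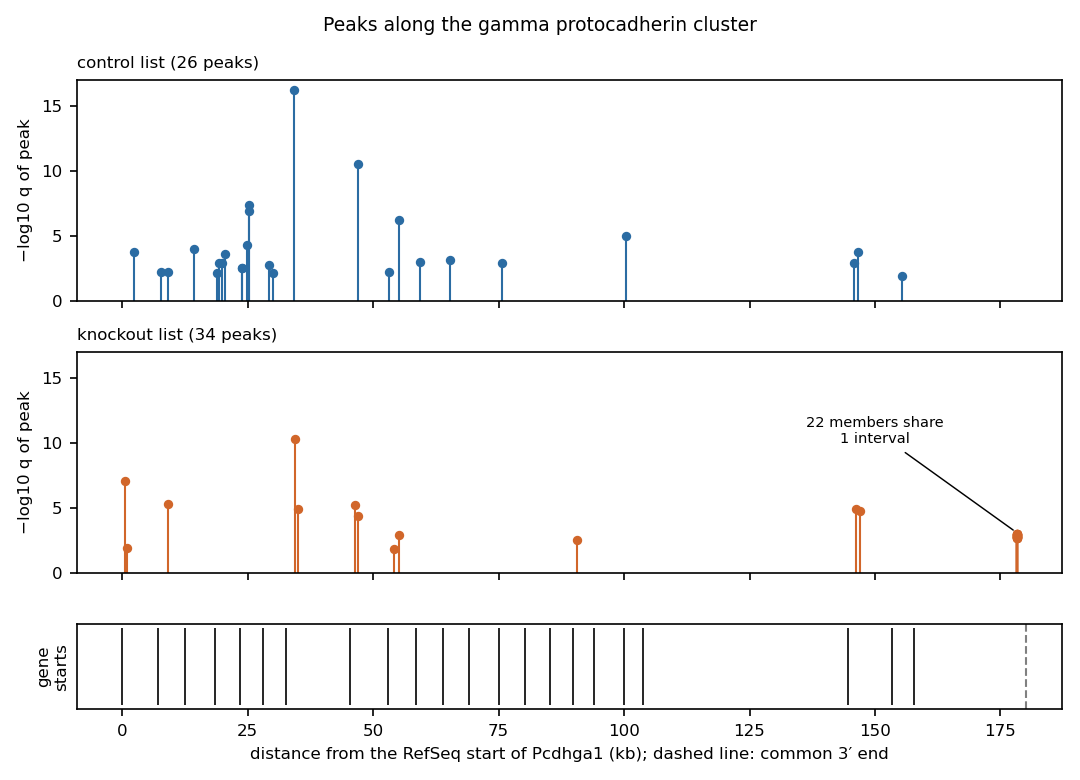
The −log10 q of each gamma protocadherin peak is plotted against its distance from the RefSeq start of Pcdhga1 in kb, with the control list above, the knockout list in the middle and the starts of the genes below. The 26 control peaks stand near the gene starts, whereas 22 of the 34 knockout peaks coincide about 178 kb downstream, just before the common end.

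Away from that interval, gamma peaks lay in the upstream part of each gene. Of 26 control peaks in 15 gamma genes, 25 started within 3000 nt of the RefSeq start of their gene, and so did all 12 of the other knockout peaks, in 7 genes. The exception was a Pcdhgb1 peak 5248 nt from the start at 37685520 to 37685670, which overlapped a Pcdhga4 peak at 37685539 to 37685689. Both carried a fold of 8.95 and a −log10 q of 2.49, so these are 2 names for nearly the same bases.

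The strongest gamma call of either list was Pcdhga5 (ENSMUSG00000103567). Its control peak at 37695067 to 37696801 was 1735 nt long, with a fold of 5.76 and a −log10 q of 16.2. In the knockout list 2 shorter peaks lay within or across the end of this stretch, at 37695964 to 37696562 (fold 5.5, −log10 q 10.3) and 37696622 to 37696861 (3.95 and 4.89). Pcdhga5 is thus listed at the same place in both genotypes.

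Pcdhga6, Pcdhga7 and Pcdhga2 also had overlapping peaks in their own upstream part. Pcdhga6 had a control fold of 5.87 (−log10 q 10.5) and a knockout fold of 5.54 (4.41) at about the same place. A second Pcdhga6 knockout peak at 37708177 to 37708327 had a fold of 14.3 and no control counterpart. For Pcdhga7 the folds were 5.87 and 3.35, and the −log10 q were 6.21 and 2.89. For Pcdhga2 the folds were close, 3.46 and 3.39, and the −log10 q was 2.2 in the control and higher, 5.28, in the knockout.

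Other gamma genes had upstream peaks in a single list or at different places. Among control peaks the highest gamma fold, 20 with a −log10 q of 3.97, was that of the only Pcdhga3 control peak, and Pcdhgb8 followed with 14.2 and 5; neither gene had an upstream knockout peak. Pcdhgb1 had 5 control peaks with folds of 4.36 to 13.7, and its own upstream part had no knockout peak. Pcdhga4 had 4 control peaks with −log10 q up to 7.37, of which 2 were nearly the same interval, at 37686943 to 37687356 and 37686945 to 37687364, and again no upstream knockout peak. In the other direction, Pcdhgb7 had an upstream knockout peak (fold 3.4, −log10 q 2.53) and no control peak. Pcdhga1 had a control peak 2266 nt from its start (fold 6.06) and knockout peaks 528 and 977 nt from it (12.8 and 5.71), with no overlap. Pcdhgc3, a C-type gamma gene, had control peaks at 37807589 to 37807739 and 37808246 to 37808486 and knockout peaks at 37808007 to 37808157 and 37808695 to 37808874, which alternated along the gene without overlap.

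Strand limits the gamma peaks further. At 3 of them, in Pcdhga7 and Pcdhgc3 of the control list and in Pcdhgb7 of the knockout list, an unnamed gene of the opposite strand had a peak on largely the same bases. For Pcdhgc3 both peaks had a fold of 2.39 and a −log10 q of 2.89. Whether the authors counted reads by strand is not given in the sources used here.

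Alpha protocadherin genes appeared in the control list alone. Among 14 RefSeq alpha genes, Pcdha2, Pcdha4 and Pcdha11 had 1 control peak each, with folds of 15.8, 10.5 and 17.9 and −log10 q of 3.22, 2.03 and 3.12. These q values were weaker than the control median of 4.72. The Pcdha11 peak, at 37006819 to 37006969, lies before the RefSeq start of Pcdha11 and within the spans of Pcdha10 and other alpha genes, so its name depends on the annotation. All 3 peaks lay at least 180688 nt before the RefSeq ends of their genes, and no alpha gene had a peak near the common end in either list.

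Beta protocadherin genes, which share no exons, had few peaks. Of 22 RefSeq genes, 4 had a peak. Pcdhb17 had an overlapping pair with a control fold of 3.58 and a knockout fold of 5.38, and Pcdhb14 had a knockout peak alone (fold 8.97, −log10 q 2.59). Pcdhb21 had a control peak alone at 37518025 to 37518175, which lies beyond the RefSeq end of the gene and overlaps a Pcdhb22 peak with the same fold of 12.6 and −log10 q of 1.87. Pcdhb22 had 5 control peaks on 3 separate intervals, with −log10 q of 1.85 to 2.04, and 2 knockout peaks that overlap each other, with folds of 7.34 and 5.71. Each overlapping beta pair had the higher fold and the higher −log10 q in the knockout list, though the 4 Pcdhb22 pairs are combinations of 2 peaks with 2 peaks.

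**Figure D2:**
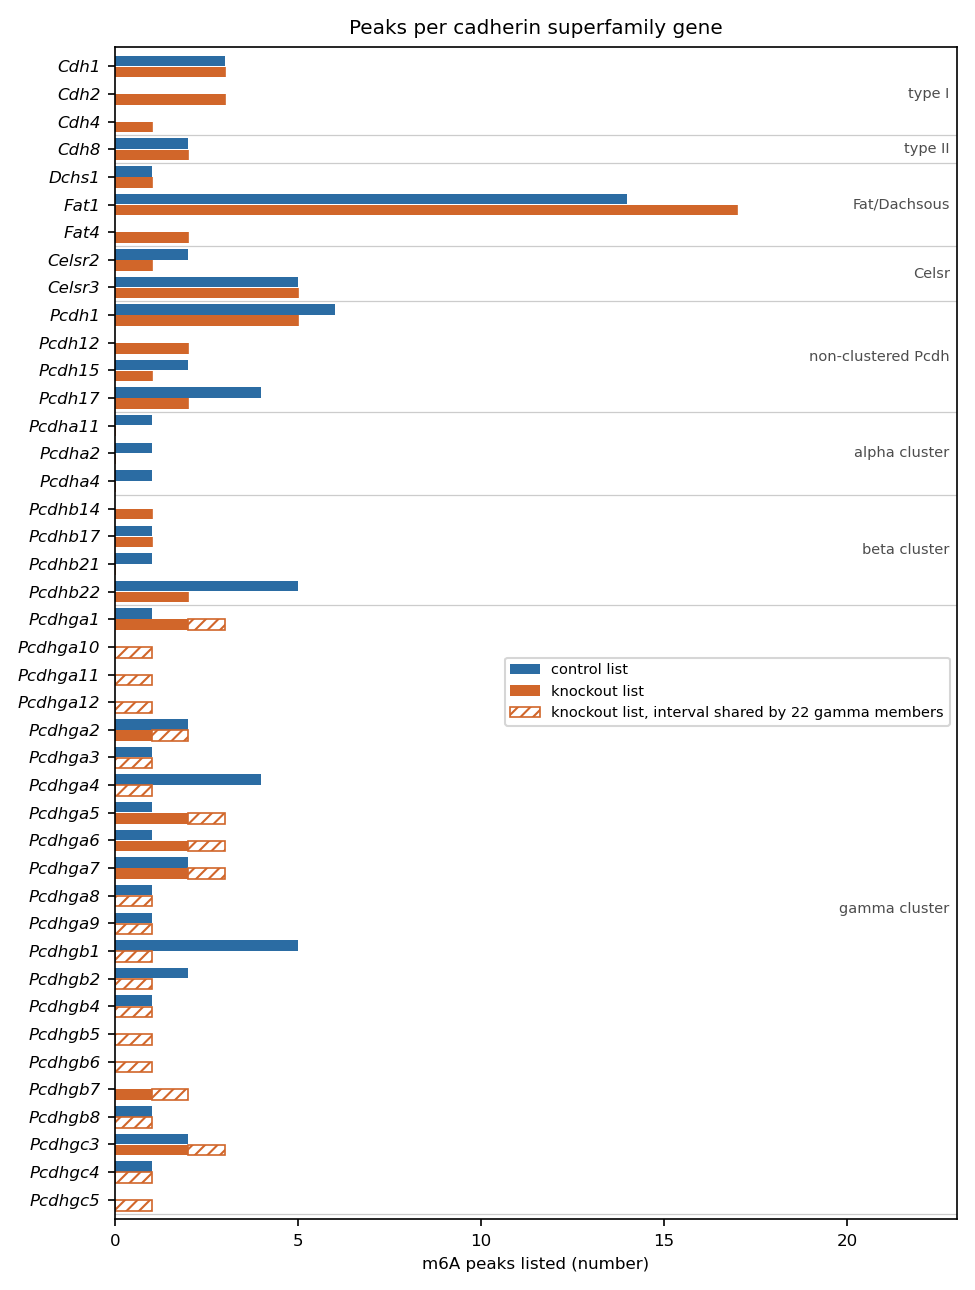
The number of m6A peaks listed per member gene is shown for the control list (blue) and the knockout list (orange), with the interval common to 22 gamma genes hatched. Fat1 has the longest bars, 14 and 17 peaks, and the hatched interval is the only knockout entry of 15 gamma genes.

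Outside the clusters, 13 of 43 RefSeq genes had a peak, 9 of them in both lists and 4 in the knockout list alone. None of the 9 with a control peak was thus absent from the knockout list (0 of 9, which allows up to 33.6% by its interval). Over all genes, 33.8% of those listed in the control had no knockout peak. Of these 9 genes, 5 had 3 or more control peaks, against 17.2% of all control genes, and over all genes with so many peaks 6.88% were listed in the control alone. The number of peaks thus moves with this count, and its part in it was not tested. Of the whole set, 4 of 30 control genes were listed there alone (13.3%, 3.76 to 30.7), and 12 of 38 knockout genes were listed there alone (31.6%, 17.5 to 48.7), against 23.1% of all knockout genes. The 4 were Pcdha2, Pcdha4, Pcdha11 and Pcdhb21. The 12 were Cdh2, Cdh4, Fat4, Pcdh12, Pcdhb14 and 7 gamma genes. Of 4 ductal markers, Krt7, Sox9 and Spp1 also had peaks in the knockout list alone, and Krt19 had no peak. Ins2, Hhex and Cd74, markers of beta, delta and immune cells, were likewise listed in the knockout alone. The part of any cell type in these counts was not tested. Without the gamma interval, 13 of 30 control members (43.3%) and 6 of 23 knockout members (26.1%) were listed there alone, against 34% and 23% of all genes. The low share of members listed in the control alone thus rests on that interval. Genes with 3 or more peaks made up 8 of 30 members in the control list (26.7%). In the knockout list they made up 10 of 38 (26.3%, against 17.4% of all knockout genes). Of these 10, 5 reach that number only with the shared gamma interval. They are Pcdhga1, Pcdhga5, Pcdhga6, Pcdhga7 and Pcdhgc3, each with 3 knockout peaks including it.

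Fat1 (ENSMUSG00000070047, chromosome 8, plus strand), a giant cadherin that acts on actin and on Hippo signalling, had the most peaks of any member. It had 14 control peaks with folds of 1.83 to 19 and 17 knockout peaks with folds of 1.66 to 4.08. In each list 11 of these peaks overlapped a peak of the other list, forming 12 overlapping pairs, and the fold was lower in the knockout list in 9 of the 12. The −log10 q was lower in the knockout in 7 of them. The control peaks began 17521 to 19680 nt, 89784 to 111082 nt and 117688 to 118287 nt from the RefSeq start. A knockout peak without counterpart stood between the first groups, at 45009854 to 45010033 (fold 2.63), and another at 45037016 to 45037226 had a fold of 2.83 and a −log10 q of 6.51.

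The Fat1 peak before the last, near the 3′ end, had the lowest q among members in both lists. It lay at 45050788 to 45051207 in the control (fold 19, −log10 q 24.1) and at 45050788 to 45051297 in the knockout (3.44 and 23.7). The fold differed by far more than the q, and 19 lies on a repeated step of high control folds described below. The peak that followed, at 45051387, had folds of 4.46 and 1.84 and −log10 q of 17.2 and 3.96. Farther upstream the order varied, with the higher −log10 q in the control in some pairs and in the knockout in others. At 45022914 to 45023334 a knockout peak with a −log10 q of 14.6 covered 2 control peaks with 1.9 and 5.53, and at 45044212 to 45044512 the values were 2.17 in the control and 10.6 in the knockout.

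Fat4 and Dchs1 encode a receptor and ligand pair of planar polarity. Fat4 had 2 knockout peaks with folds of 11.4 and 17.9 and −log10 q of 1.63 and 3.25, and no control peak. Dchs1 had 1 peak in each list, at 105764422 to 105764572 in the control (fold 13.7, −log10 q 2.11) and at 105772034 to 105772213 in the knockout (14.7 and 2.42). Both genes thus had high folds with weak q.

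Celsr3 (ENSMUSG00000023473, chromosome 9), an adhesion receptor of planar polarity with cadherin repeats, had the most regular pattern. Its 5 control and 5 knockout peaks overlapped one to one, with 4 pairs near the RefSeq gene start and the other 3561 to 3681 nt before the gene end. Control folds, from 5′ to 3′, were 4.74, 5.59, 2.48, 6.39 and 5.58, and knockout folds were 2.31, 3.46, 3, 3.05 and 3.07. The knockout fold was thus lower at 4 of the 5 sites and higher at the third. The control −log10 q were 16.3, 23.5, 10.6, 18.7 and 19.1, and the knockout values were 9.7, 10.7, 8.71, 8.59 and 10.3. All 5 were lower in the knockout list, and the median ratio of knockout over control fold was 0.55. Such declines were common among strong control peaks of any gene. Of all overlapping pairs with a control −log10 q of 10 or more, 81.3% had a lower −log10 q in the knockout. The fold was lower in 74.9% of them, with a median ratio of 0.743. These pairs were chosen by control q alone, which can by itself favour lower knockout values. Celsr2, a relative of Celsr3, had 2 control peaks (folds 17.9 and 4.48) and 1 knockout peak (5.09, −log10 q 2.16), with no overlap.

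Pcdh1 (ENSMUSG00000051375, chromosome 18, minus strand), a protocadherin of epithelia, had 6 control and 5 knockout peaks, all of which overlapped a peak of the other list. The control folds ran from 3.48 to 6.58 and the knockout folds from 1.85 to 3.31, and the ranges did not overlap. In each of the 6 pairs the knockout fold was lower. The −log10 q was lower in 4 of the 6, among them the peak at 38189115 to 38191071 (control 22.3, knockout 11.4) and the peak at 38199138 to 38199527 (21.8 and 13.3).

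**Figure D3:**
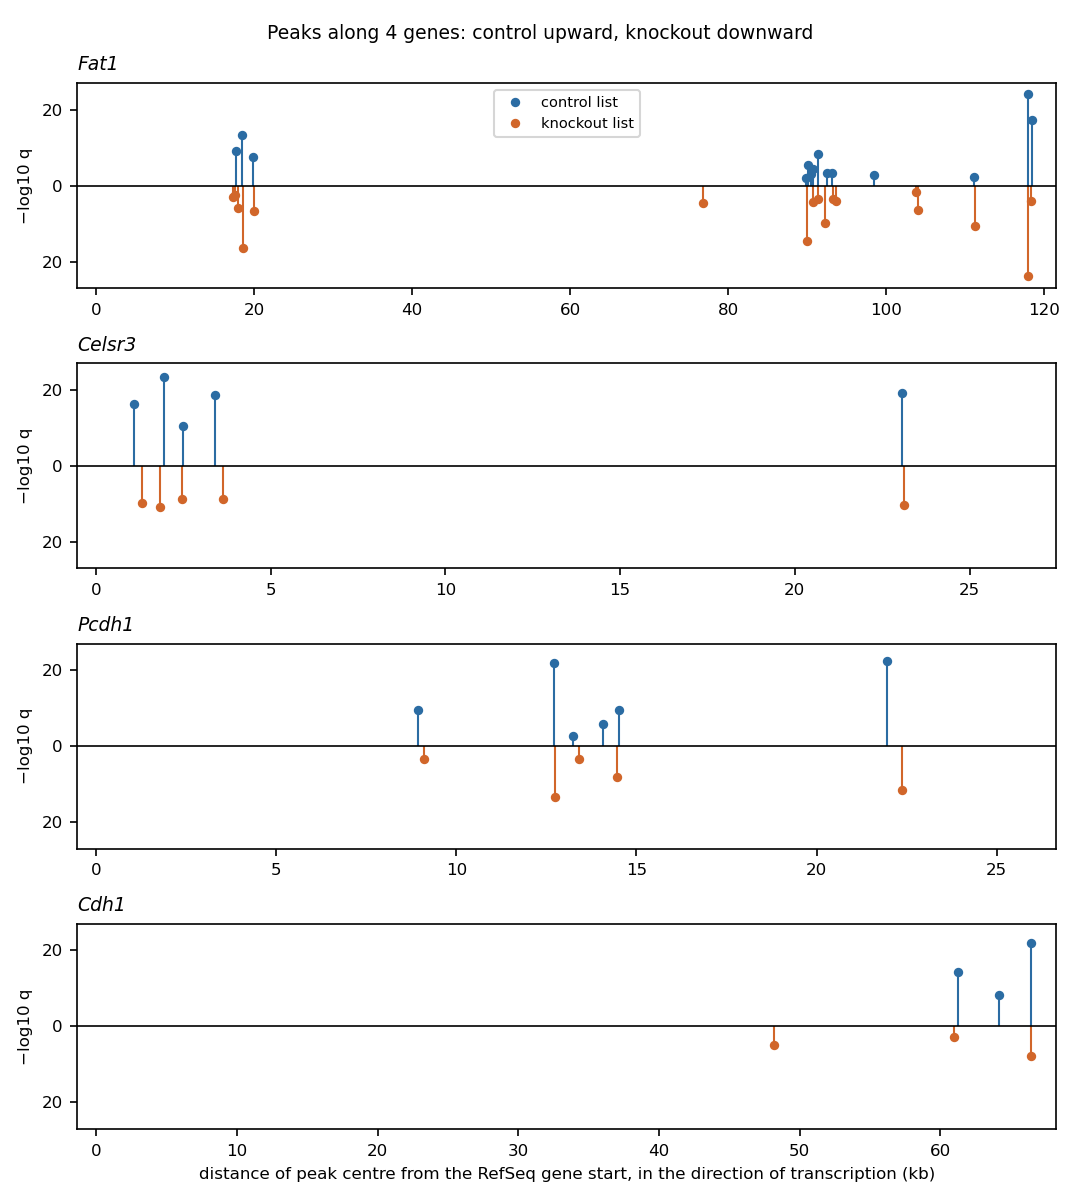
The −log10 q of each peak of Fat1, Celsr3, Pcdh1 and Cdh1 is plotted against the distance of its centre from the RefSeq gene start in kb, control upward and knockout downward. Peaks of Celsr3 and Pcdh1 face each other, with shorter knockout lines at all 5 Celsr3 sites and in 4 of 6 Pcdh1 pairs, whereas Fat1 has sites where the knockout line is the longer.

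Cdh1 encodes E-cadherin, the classical cadherin of epithelial adherens junctions that also joins islet cells. It had 3 control peaks with folds of 3.14, 1.98 and 2.49 and −log10 q of 14.4, 8.38 and 21.9, all within the last part of the gene. The 3 knockout peaks had folds of 1.99, 1.61 and 1.72 and −log10 q of 4.99, 2.78 and 7.87. An overlapping pair close to the 3′ end, at 106669618 to 106669977 in the control and 106669708 to 106669917 in the knockout, had folds of 2.49 and 1.72. The other pair, at 106663774 to 106665417 and 106664267 to 106664417, had folds of 3.14 and 1.61, so both were lower in the knockout list. The knockout peak at 106649202 to 106653806 joined 3 exon blocks and had no control counterpart, and the control peak at 106666318 to 106668632 joined 2 blocks and had no knockout counterpart.

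Among the other classical cadherins, Cdh2, which encodes N-cadherin, had knockout peaks alone. Its 3 peaks had folds of 2.32, 2.22 and 1.74 and −log10 q of 2.25, 6.94 and 4.05, and the last 2 joined exons. Cdh4, which encodes R-cadherin, had 1 knockout peak alone (fold 13, −log10 q 2.02). Cdh8, a type II cadherin, had a control peak at 99400817 to 99401147 with a −log10 q of 19.4 and a fold of 3.24. The overlapping knockout peak had 3.3 and 2.59. A further control peak that joined exons (fold 2.93) and a knockout peak near the gene start (3.19) had no counterpart. None of the other type II genes had a peak among 12 in RefSeq, which leave out the endothelial cadherin Cdh5.

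Further non-clustered protocadherins had high folds with mostly weak q. Pcdh17, known from the brain, had 4 control peaks with folds of 15.8 to 20 and −log10 q of 2.61 to 3.65, and 2 knockout peaks with folds of 21.2 and 8.42 and −log10 q of 4.41 and 6.25. Pcdh15, a component of the tip links of hair cells, had an overlapping pair with folds of 16.3 and 22. Pcdh12, known from endothelial cells, had 2 knockout peaks (folds 11.4 and 17.1, −log10 q 2.02 and 3.04) and no control peak. All 5 endothelial markers examined had peaks in both lists, and their part in the Pcdh12 result was not tested.

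**Figure D4:**
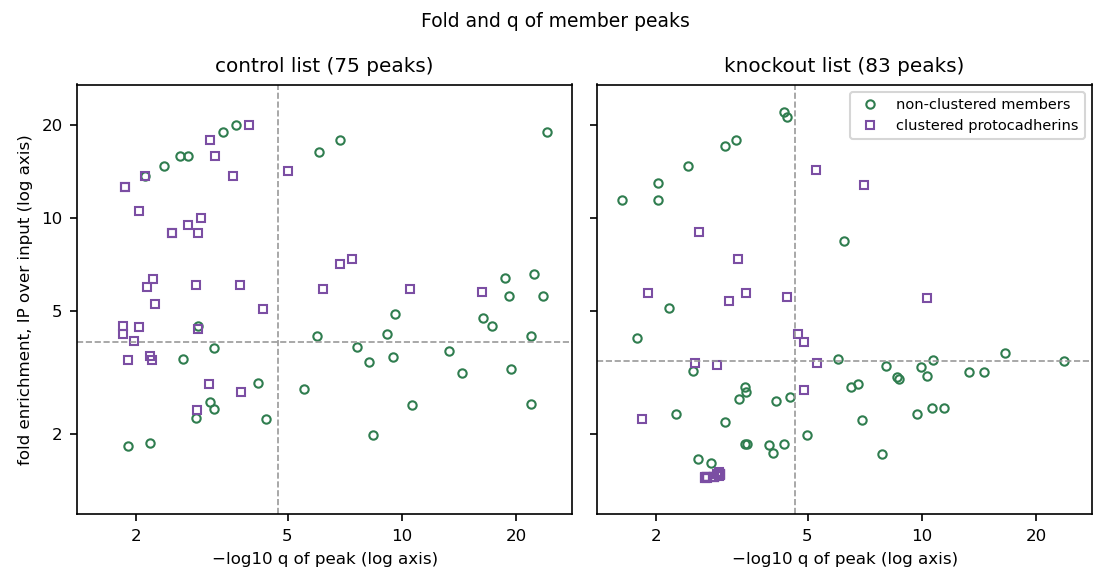
Fold enrichment is plotted against −log10 q for each member peak of the control (75 peaks) and the knockout list (83 peaks), both on log axes, with dashed lines at the medians of all peaks. Most folds above 10 stand left of the median q, and the cluster of squares at the lower edge of the knockout panel is the shared gamma interval.

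Clustered and other members differed in their typical values. Clustered protocadherin peaks had a median fold of 6.06 and a median −log10 q of 2.88 in the control list, and 1.48 and 2.91 in the knockout list, where the gamma interval sets them. Non-clustered members had 4.14 and 6.86 in the control list, and 3 and 4.33 in the knockout list. All control peaks had medians of 3.95 and 4.72, and all knockout peaks 3.43 and 4.63.

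High folds were frequent among the control peaks of members and mostly carried weak calls. A fold of 10 or more was found for 19 of 75 member peaks in the control list (25.3%, 16 to 36.7), against 14.2% of all control peaks, and for 10 of 83 in the knockout list (12%, 5.93 to 21), against 9.92%. The median −log10 q of these peaks was 3.12 and 3.15, and that of all peaks with such folds 3.32 and 3.04. Exceptions above the control median of 4.72 were control peaks of Fat1 (fold 19, −log10 q 24.1), Celsr2 (17.9 and 6.86), Pcdh15 (16.3 and 6.06) and Pcdhgb8 (14.2 and 5). Folds of 16 of these 19 control peaks fell within 0.06 of a whole multiple of 1.053, and those of 8 of the 10 knockout peaks within 0.06 of a multiple of 0.815. The same held for 86.3% and 88.3% of all peaks with such folds. The read counts behind them are unknown, so the order of these folds is that of the deposited values alone.

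Over all members, the place of a peak was often not the same in both lists. In the control list 41 of 75 member peaks had no counterpart (54.7%, 42.7 to 66.2), against 48.4% of all control peaks, and in the knockout list 49 of 83 (59%, 47.7 to 69.7), against 38.4%. Control peaks of clustered and non-clustered members differed in this share, though a few genes held most of the non-clustered counterparts. Among clustered protocadherins 29 of 36 control peaks (80.6%, 64 to 91.8) and 30 of 38 knockout peaks (78.9%) had no counterpart. Of these 38 knockout peaks, 22 are the shared gamma interval, and 8 of the other 16 had a counterpart. Among non-clustered members 12 of 39 control peaks (30.8%, 17 to 47.6) and 19 of 45 knockout peaks (42.2%, 27.7 to 57.8) had none. Most non-clustered control peaks with a counterpart lay in Fat1 (11 of 14), Pcdh1 (6 of 6) and Celsr3 (5 of 5). The others were Cdh1 (2 of 3), Cdh8 (1 of 2), Pcdh15 (1 of 2), Pcdh17 (1 of 4), Celsr2 (0 of 2) and Dchs1 (0 of 1). The intervals treat peaks of the same gene as independent. Without the shared gamma interval 55.7% of member knockout peaks had a counterpart, up from 41%. Of the 26 members with peaks in both lists, 13 had no overlapping pair, 11 of them gamma genes, against 13.2% of all genes listed in both. For 9 of these 11 the shared gamma interval is the only knockout peak, so most of this difference rests on it.

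Within overlapping pairs, the fold was lower in the knockout list in 27 of 38 member pairs (71.1%, 54.1 to 84.6), against 57.3% of all pairs, and the −log10 q in 24 of 38 (63.2%, 46 to 78.2), against 59.2%. Both intervals include the share of all pairs, and some peaks enter more than 1 pair. The median ratio of knockout over control fold was 0.815 in member pairs and 0.911 in all pairs. Among member pairs with a control −log10 q of 10 or more, the fold was lower in 15 of 16 (93.8%, 69.8 to 99.8). The −log10 q was also lower in 15 of 16. The shares of all such pairs, 74.9% for fold and 81.3% for −log10 q, lie within this interval. Choosing pairs by a high control −log10 q can by itself favour lower knockout values. No matching choice by knockout −log10 q was made. These member pairs include every pair of Celsr3, Cdh1 and Cdh8, so their declines were not set apart from those of other strong control peaks. By gene, the best −log10 q of 17 of 26 members was the lower in the knockout (65.4%, 44.3 to 82.8), against 60.0% of all genes listed in both. The highest fold was lower for 19 of 26 (73.1%, 52.2 to 88.4), against 57.5%. The shared gamma interval is the only knockout peak of 9 of these 19 genes, and without it the highest fold was lower for 10 of 17 (58.8%, 32.9 to 81.6), and so was the best −log10 q. The best −log10 q was lower for 7 of 9 non-clustered members, the exceptions being Pcdh17 and Dchs1. Peaks that join exons were few, 4 of 75 in the control and 3 of 83 in the knockout list, against 11.7% and 18.0% of all peaks, and all 7 lay in Cdh1, Cdh2, Cdh8 and Pcdh1.

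**Figure D5:**
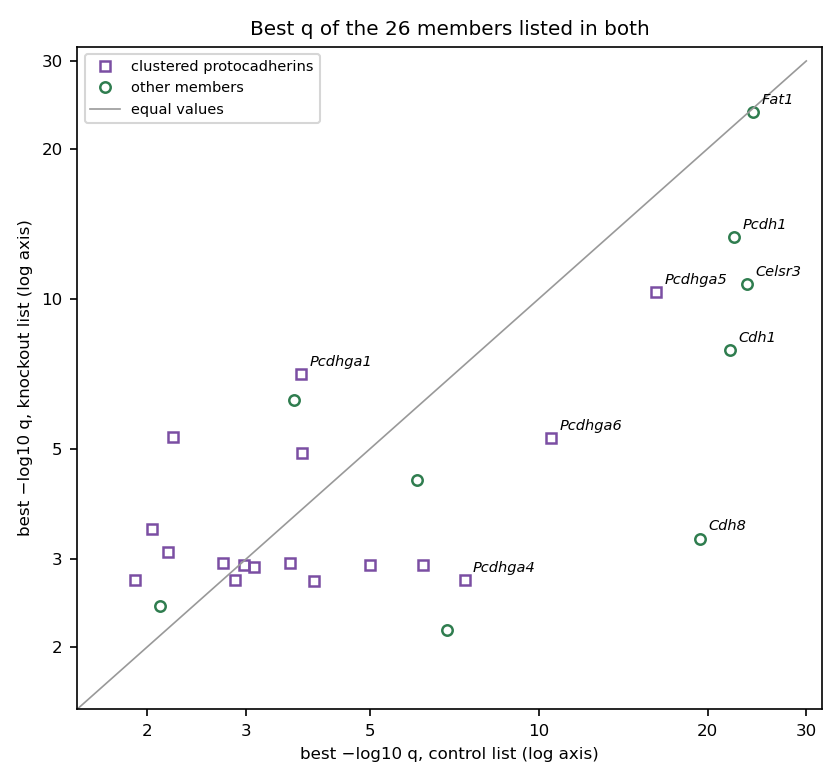
The best −log10 q in the knockout list is plotted against that in the control list for the 26 members with peaks in both, on log axes, with a line of equal values. Cdh8, Cdh1, Celsr3, Pcdh1 and Pcdhga5 lie below the line, Fat1 lies close to it, and Pcdhga1 lies above it.

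Partners of the cadherins were examined by list. Of 85 genes in 7 lists, 31 had peaks in both lists, 12 in the control alone, 7 in the knockout alone and 35 in neither. Listed in the control alone were thus 12 of 43 control genes (27.9%, 15.3 to 43.7, against 33.8% of all), and in the knockout alone 7 of 38 (18.4%, 7.74 to 34.3, against 23.1%). In each of the 7 lists, with at most 12 genes listed in either genotype, the intervals of both shares included those of all genes. Among 17 catenins and other tail partners, 10 had peaks in both lists, Jup in the control alone, and the alpha-catenin genes Ctnna1 and Ctnna2 in the knockout alone. The best −log10 q of Ctnnd1, which encodes p120-catenin, was 30.1 in control and 8.64 in knockout islets, that of Pkp4 30.2 and 6.88, and that of Afdn, the afadin gene, 8.21 and 21.1. Ctnnb1, the beta-catenin gene, named after its values were seen, had 4 control peaks and 1 knockout peak, with best −log10 q of 12.1 and 8.26 and no overlap.

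Of 11 planar polarity genes, Vangl2 and Prickle1 had peaks in both lists, Vangl1, Fzd3, Dvl2 and Invs in the control alone, and Dvl3 in the knockout alone (−log10 q 14.8). Of 18 genes of Fat and Hippo signalling, 4 had peaks in both lists, including the kinase gene Lats1 (28.1 and 18.2). The control list alone had Tead1 and Amotl2, and the knockout list alone had Yap1, Stk4 and Mob1a. Among 7 genes of cadherin shedding and cleavage, Ncstn (21.2 and 8.68) had overlapping peaks in both lists, and Adam10, Adam17 and Psen2 had control peaks alone. Other cadherin superfamily genes, 16 in number, had 3 in both lists, including Clstn1 (19.3 and 9.78), and 2, Dsc2 and Ret, in the control alone. Of 7 islet adhesion genes, 3 had peaks in both lists, with Gjd2, the connexin gene of beta cells, at 37.4 and 4.77, and Efna5 had a knockout peak alone. The last list held 9 regulators of the protocadherin clusters, most of them genes of CTCF and cohesin, which act in promoter choice there. Of these 9, 7 had overlapping peaks in both lists, including Nipbl (23.3 and 16) and Rad21 (7.72 and 17.8).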

How the data were processed

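Peaks came from mouse islet RNA, as 1 list per genotype. The authors used fastp 0.19.11, BWA 0.7.12 and the build GRCm38, per the submitters' processing notes, and ran exomePeak 2.16.0 on IP against input of the same genotype, at a q threshold of 0.05, per the labels. The deposited files give a p-value, a fold (the ratio of IP over input), log10 columns treated as a score, and exon blocks as other values. Neither depth nor annotation release is given in the sources used here, and a list was matched to its genotype by the name shared with the sample titles.

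Peaks were called overlapping when exon blocks of the same strand had at least 1 bp in common, and genes were joined by identifier. Peaks of a list that overlapped on the same strand formed an interval. RefSeq spans (GRCm38.p6) matched 42 of 42 members. The overlap code was tested on simulated data. Members and lists were chosen with earlier results of these data known. All members could be named, with full values for those sharing an interval, with 3 or more peaks, in 1 list alone, or leading by q or fold. Of related lists, up to 4 genes with the lowest q were named, and genes of small counts were named after their values were seen; 1 result is not reported here. Alternatives were q of 0.001 or less, fold of at least 2, equal numbers of peaks, joining by name, a 50% reciprocal overlap, a 200 bp neighbourhood, merging and counting shared intervals once. Python 3.11.15, pandas 2.3.3 and scipy 1.17.1 were used.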

Additional observations from a re-analysis of the deposited data

How the results depend on the processing

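Of 41 alternative values, 23 stayed within the tolerance (within 1.5 times of a count, or inside the 95% interval of a share or median) and 18 moved, for which the cause was not tested unless stated. The 26 members in both lists, 4 in the control alone and 12 in the knockout alone became 11, 9 and 6 at a q of 0.001 or less, and 16, 14 and 6 at folds of 2 or more. At that q, 45% of control members were listed there alone, against 34.6% of all control genes, and at that fold 46.7% against 36.2%. For the knockout list these shares were 35.3% against 23.4% at that q, and 27.3% against 24.9% at that fold. Taking as many peaks from each list left 2 in the control alone. With members that share an interval counted once, by which gamma genes become 1 unit, 12 were in both lists and 5 in the knockout alone. Without the shared gamma interval, an alternative chosen after seeing the data, the counts were 17, 13 and 6. The q and fold settings above also drop this whole interval, whose folds were at most 1.5 and −log10 q at most 2.95. Under a 50% reciprocal overlap 26.7% of control and 24.1% of knockout member peaks had a counterpart. For knockout peaks the share was 54.1% with overlapping peaks merged and 55.7% without the gamma interval. The shares of all peaks under these settings are not given here. The median knockout fold and −log10 q were 3.19 and 4.33 with each interval counted once, as the 22 weak gamma peaks then count once. The share of members with a weaker best q in the knockout stayed within its interval throughout. No paired analysis was possible because a genotype is a single pool, and no replicate could be left out for the same reason. Unknown depth limits all weak calls.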

Other observations

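Cdh5, the endothelial cadherin that the gene rule leaves out, had 3 control peaks with folds of 3.08, 4.89 and 2.98 and 1 longer knockout peak with a fold of 7.34, which overlapped all 3. Their −log10 q were 6.72, 9.37 and 2.27 in the control and 9.03 in the knockout.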
